A study of Mus musculus with 12 samples.

Results

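The comparison of phenylpropionic acid (PPA) with plain water was made over both times at once, with time in the model, in RNA-seq of mouse liver. All 12 of the 12 libraries were used, 6 PPA and 6 control, and 10044 of 24340 gene rows were tested. A row was tested where it reached 1 FPKM (a level counted relative to transcript length and to the size of the library) in at least 3 libraries. Alb and Apoe were left out, since each was listed at 0 in whole groups and at 17330 FPKM or more in others. All mice were C57BL/6. The PPA mice had PPA in their drinking water for 4 weeks and the control mice (CTL) drank normal water. Both were fasted for 16 h and given acetaminophen (APAP) intraperitoneally at 300 mg/kg, with the liver collected 0 h or 6 h later. The groups CTL_0h, PPA_0h, CTL_6h and PPA_6h hold 3 libraries each, and the labels do not say whether the 0 h mice were injected before collection. The fast was shared by every group, so there was no fed liver to compare with. Nothing in the labels says that the libraries came from separate mice, so the p-values measure the spread between these libraries.

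PPA is a small aromatic acid that gut bacteria make from dietary aromatic compounds. In the liver it is activated to a CoA ester, shortened by the mitochondrial beta-oxidation enzymes to benzoate and joined to glycine, and the product, hippurate, leaves in the urine. APAP is cleared mostly by glucuronidation and sulfation, while cytochrome P450 enzymes turn a part of it into a reactive quinone imine that glutathione captures. A fasted liver burns fatty acids, a programme driven by the nuclear receptor PPAR-alpha.

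The libraries were similar in content and unequal in depth. Summed FPKM lay between 593025 and 769104, and 9277 to 9535 genes reached 1 FPKM. Depth, estimated from the steps between low FPKM values, was 3260000 to 5080000 fragments at 0 h and 7020000 to 10190000 at 6 h, so time and depth cannot be told apart, while PPA and control libraries of a time had overlapping depths. The 12 hepatocyte markers in the table were above 0 and summed to between 60490 and 96170 FPKM. Xist was at most 0.0168 FPKM and Y-linked Ddx3y at least 5.2 FPKM in the 12 libraries, so none differed in sex. The library CTL_6h_4 carried skeletal muscle RNA, with 22 muscle markers summing to 171 FPKM against 2.65 to 5.94 FPKM in the others.

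Among the 6 h libraries 1 control stood with the PPA group. On the second principal component, which held 13.1% of the variance, the library labelled CTL_6h_3 scored −8.29, while CTL_6h_2 scored 21.2 and CTL_6h_4 scored 28.0. The PPA_6h libraries scored −18.5, −24.7 and −0.124. Over all tested genes CTL_6h_3 correlated at 0.981 to 0.988 with the PPA_6h libraries and at 0.976 and 0.982 with the other controls. The PPA library nearest to the controls was PPA_6h_5. For the genes called below, the level in CTL_6h_3 was on the control side except where stated.

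**Figure D1:**
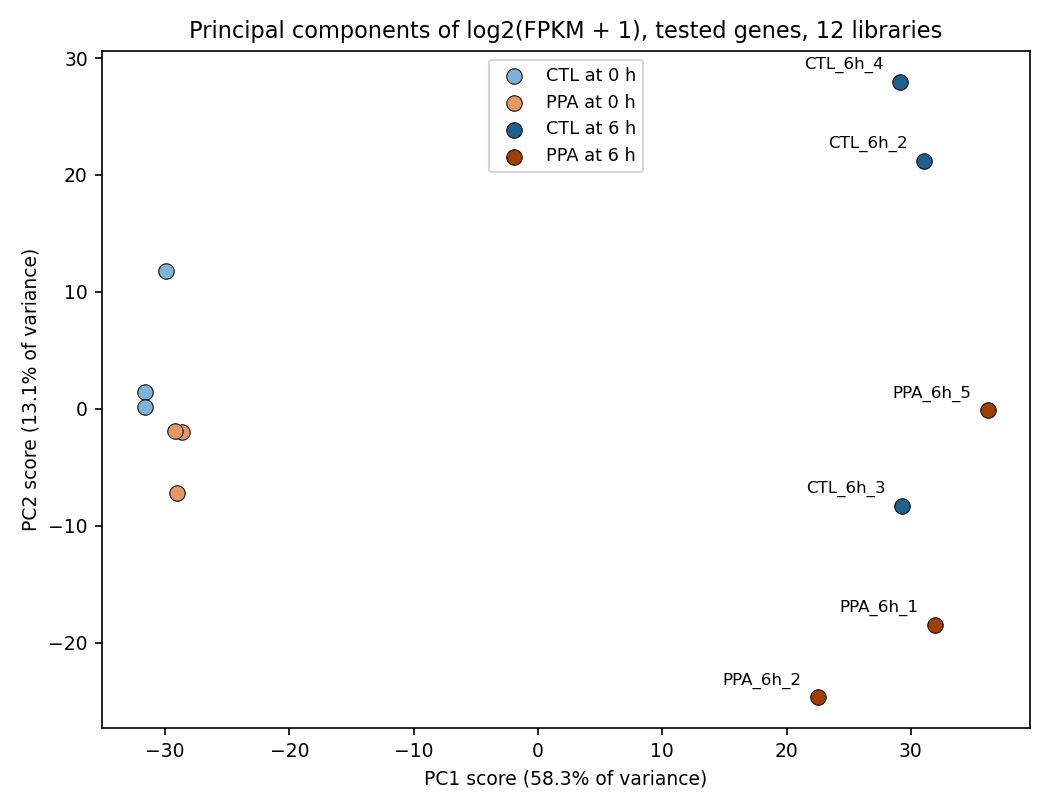
Scores of the 12 libraries on the first (x) and second (y) principal components of log2(FPKM + 1), coloured by group, with the 6 h libraries named. The first component separates 0 h from 6 h, and on the second CTL_6h_3 at −8.29 lies among the PPA libraries of 6 h.

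Few genes passed the test of the PPA effect averaged over both times, which a single time can carry. The mean PPA effect over both times passed an adjusted p of 0.05 (limma, Benjamini-Hochberg over 10044 genes) in 10 genes, 0.0996% of those tested. Of these 7 rose, 0.0697%, and 3 fell, 0.0299%. Without adjustment 1302 genes, 13%, had p under 0.05, with 557 higher (5.55%) and 745 lower (7.42%). After quantile normalization the unadjusted split turned, with 632 higher and 555 lower. The median effect over all genes was −0.02 on the log2(FPKM + 1) scale, with an SD across genes of 0.21. The same fit called 3 genes at 0 h (0.0299%) and 14 at 6 h (0.139%), and for 1 gene, H2-Q8, the effects at the 2 times differed (0.00996%).

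The count of calls for the mean effect turned on single libraries at 6 h. Without CTL_6h_3, 335 of 9987 genes passed (3.35%), 147 higher (1.47%) and 188 lower (1.88%). Without PPA_6h_5, 178 of 9994 genes passed (1.78%), 52 higher (0.52%) and 126 lower (1.26%). All 10 genes were called in both of these fits. Of the 12 fits with 1 library left out, Moxd1, Enho, H2-Q8, Slc3a1 and Rnaset2a were called in all 12. Cyp2c70 and H2-Q6 were each called in 5 of the 12, Tff3 in 4, Pdk4 in 3 and Serpina9 in 2. Of the 335 genes, 131 had unadjusted p under 0.05 at 0 h and 329 at 6 h (limma). In 302 the sign was the same at both times, and in 153 the groups were apart at both times. Of the 178 genes, 67 had unadjusted p under 0.05 at 0 h and 174 at 6 h. In 165 the sign was the same, and in 87 the groups were apart at both times. The 2 sets shared 64 genes, 19.1% of the first and 36% of the second. The labels give no reason to leave out either library, and their part in the counts beyond these values was not tested. The fits without CTL_6h_3 and without PPA_6h_5 are given because they had the most calls. Leaving out any other single library gave 4 to 6 higher and 1 to 2 lower genes. List counts given below at the adjusted threshold without CTL_6h_3 or PPA_6h_5 stand against the shares of all genes above. For unadjusted counts with a library left out, the share of all genes is not given.

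Across all genes the effects at the 2 times were weakly related. Of the tested genes 5549 (55.2%) had the same sign at both times, 3051 lower (30.4%) and 2498 higher (24.9%). Differences over 0.5 at both times had the same sign in 76 genes (0.757%) and opposite signs in 35 (0.348%). Across genes, which are not independent replicates, the effects at 0 h and 6 h correlated at r = 0.13. The 3 PPA libraries lay wholly above or wholly below the 3 controls in 1459 genes at 0 h (14.5%) and in 1526 at 6 h (15.2%). In 115 genes (1.14%) they did so at both times in the same direction, 53 above (0.528%) and 62 below (0.617%). In 86 genes (0.856%) the direction was opposite.

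**Figure D2:**
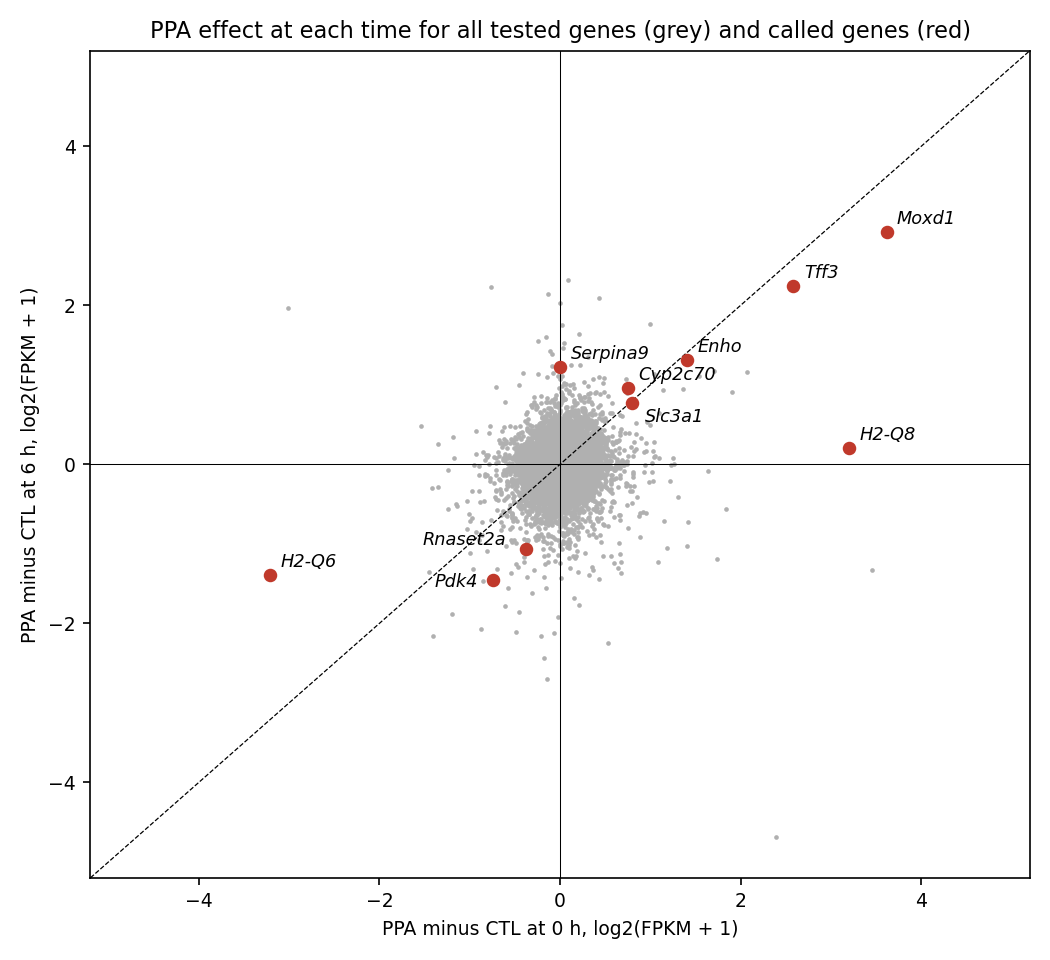
PPA minus control difference in log2(FPKM + 1) at 0 h (x) and at 6 h (y), 1 point per tested gene, with the 10 genes called for the mean effect in red and equal effects on the dashed line. Moxd1, Tff3, Enho, Cyp2c70 and Slc3a1 lie near the dashed line at upper right, Pdk4 and Rnaset2a at lower left, and Serpina9 and H2-Q8 near an axis.

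Promoters are shown for called genes whose groups were apart at both times and whose transcripts have at most 1.4% of their 50-base words in other genes. Of 6 such genes the promoter table matched 4, and Enho and Tff3 are named only. RefSeq windows of 300 bases around the annotated start (GRCm38.p6) were searched on both strands for a STAT site (TTCNNNGAA), which growth hormone and cytokine signalling use, for the PPAR-alpha direct repeat, 2 copies of AGGTCA with 1 base between, for the HNF1 palindrome, GTTAAT and ATTAAC with 1 base between, and for the TATA box TATAAA. Matches are in capitals.
Moxd1 (chr10:24223267-24223566, plus strand): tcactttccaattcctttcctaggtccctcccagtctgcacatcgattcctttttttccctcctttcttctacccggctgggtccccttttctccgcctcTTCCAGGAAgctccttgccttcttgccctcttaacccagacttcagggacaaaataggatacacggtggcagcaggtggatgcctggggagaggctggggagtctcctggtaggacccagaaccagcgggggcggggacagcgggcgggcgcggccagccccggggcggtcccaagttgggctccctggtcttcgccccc
Slc3a1 (chr17:85028097-85028396, plus strand): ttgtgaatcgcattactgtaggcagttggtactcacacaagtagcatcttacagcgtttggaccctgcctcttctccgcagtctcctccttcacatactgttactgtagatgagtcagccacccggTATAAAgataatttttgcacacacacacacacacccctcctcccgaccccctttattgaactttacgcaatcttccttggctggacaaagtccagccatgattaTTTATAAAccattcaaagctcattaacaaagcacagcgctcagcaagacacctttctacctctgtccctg
Cyp2c70 (chr19:40187237-40187536, minus strand): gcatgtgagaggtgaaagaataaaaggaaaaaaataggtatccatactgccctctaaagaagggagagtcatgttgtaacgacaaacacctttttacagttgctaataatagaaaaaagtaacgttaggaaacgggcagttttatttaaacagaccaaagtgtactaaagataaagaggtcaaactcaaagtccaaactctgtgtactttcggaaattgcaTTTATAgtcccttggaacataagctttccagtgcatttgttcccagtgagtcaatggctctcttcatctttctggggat
Pdk4 (chr6:5496229-5496528, minus strand): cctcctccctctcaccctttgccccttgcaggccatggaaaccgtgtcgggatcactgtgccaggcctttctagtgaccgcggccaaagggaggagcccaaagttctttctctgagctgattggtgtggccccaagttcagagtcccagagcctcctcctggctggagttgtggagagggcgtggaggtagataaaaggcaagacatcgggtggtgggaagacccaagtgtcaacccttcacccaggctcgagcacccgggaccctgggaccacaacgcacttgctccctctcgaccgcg
The Moxd1 window held 1 STAT match, 150 bases before the start, a motif found in 8.33% of 32544 windows. The Slc3a1 window held 3 TATA matches, 2 of them overlapping, and the Cyp2c70 window held 1, against 13.6% of all windows with any. The Pdk4 window held no match to these letters. The direct repeat (0.0399% of windows) and the HNF1 site (0.00922%) were in none of the 4 windows.

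Moxd1, which encodes a copper-dependent monooxygenase-like protein related to dopamine beta-hydroxylase, rose most. The gene is at chr10:24223517-24302790. Its level at 0 h was 0.157, 0.260 and 0.101 FPKM in the controls and 21.9, 7.76 and 13.7 FPKM with PPA. The 6 h controls had 0.0757, 1.56 and 0.188 FPKM and the 6 h PPA libraries 19.6, 4.93 and 10.5 FPKM. The gene was near 0 in the controls and clearly present in the 6 PPA libraries, with no overlap, and the 1 control above 1 FPKM was CTL_6h_3. The mean log2 difference was 3.27 ± 0.31 (SE; adjusted p = 0.00123, limma), 3.61 at 0 h and 2.92 at 6 h. The gene was called in each of 26 settings of the test.

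Tff3, which encodes trefoil factor 3, a secreted peptide of mucosal surfaces, went from 4.38 ± 2.34 to 29.2 ± 5.88 FPKM at 0 h (SD, n = 3). The 6 h levels went from 10.1 ± 5.53 to 53.2 ± 29.9 FPKM. The single values at 6 h were 12, 14.5 and 3.88 FPKM in controls and 77.4, 62.5 and 19.8 FPKM with PPA, so the groups were apart, with PPA_6h_5 lowest of the PPA libraries. The gene lies at chr17:31125306-31129646. The mean log2 difference was 2.41 ± 0.36 (adjusted p = 0.0259, limma). The call was lost when any of CTL_0h_1, CTL_0h_3, CTL_6h_2, PPA_0h_2, PPA_0h_4, PPA_0h_5, PPA_6h_1 or PPA_6h_2 was left out, with adjusted p of at most 0.0935 and no change of sign, and also with no filter on low values (adjusted p = 0.131, limma) or with robust moderation (adjusted p = 0.103).

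Enho encodes adropin, a secreted liver peptide tied to lipid and glucose metabolism. Its 0 h levels were 7.5, 7.95 and 14.4 FPKM in controls and 24.9, 24.5 and 32.2 FPKM with PPA. Its 6 h levels were 15.6, 12.6 and 9.96 FPKM in controls and 31.7, 35.6 and 30.4 FPKM with PPA. The lowest PPA library lay above the highest control at each time, and the size of the difference was close at the 2 times, 1.41 and 1.31. The gene, at chr4:41638144-41640324, had a mean log2 difference of 1.36 ± 0.15 (adjusted p = 0.00321, limma), and no single left-out library ended the call.

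Slc3a1, at chr17:85028376-85064236, encodes the heavy chain of the carrier that moves cystine and dibasic amino acids. Its controls were tight, at 4.43, 3.91 and 4.44 FPKM at 0 h and 10.7, 10.5 and 10.9 FPKM at 6 h. The PPA libraries had 10.1, 7.55 and 7.09 FPKM at 0 h and 18.9, 22 and 16.2 FPKM at 6 h. Each PPA library was above each control of its time, over a level that was also higher at 6 h in both treatments. The mean log2 difference was 0.78 ± 0.10 (adjusted p = 0.00684, limma), 0.80 at 0 h and 0.77 at 6 h, and it was called whichever library was left out.

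Cyp2c70, the mouse P450 that makes muricholic acids from chenodeoxycholic acid, is at chr19:40153353-40187333. It went from 26.7 ± 3.99 to 46.0 ± 10.3 FPKM at 0 h and from 26 ± 6.46 to 50.5 ± 2.68 FPKM at 6 h (SD, n = 3). The highest control at any time was 32.6 FPKM and the lowest PPA library 38.5 FPKM, so the 6 PPA libraries were above the 6 controls. The mean log2 difference was 0.85 ± 0.13 (adjusted p = 0.0277, limma). It was not called without CTL_0h_1, CTL_0h_4, CTL_6h_2, PPA_0h_2, PPA_0h_5, PPA_6h_1 or PPA_6h_2, left out 1 at a time, with adjusted p up to 0.116, or with no filter on low values (adjusted p = 0.114, limma).

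Pdk4 fell in the mean over both times and was lower at each time. Its adjusted p was 0.633 at 0 h and 0.0477 at 6 h (limma). The gene, at chr6:5483351-5496309, encodes pyruvate dehydrogenase kinase 4, which restrains glucose oxidation in the fasted state and is a PPAR-alpha target. At 0 h its controls had 6.22, 6.94 and 6.19 FPKM and its PPA libraries 6.16, 2.4 and 2.61 FPKM. PPA_0h_2 was just under the lowest control, and the other 2 PPA libraries were well below. At 6 h the controls had 10.5, 9.25 and 12.7 FPKM and the PPA libraries 2.27, 3.99 and 3.75 FPKM, far apart. The mean log2 difference was −1.10 ± 0.18 (adjusted p = 0.0395, limma), −0.74 at 0 h and −1.46 at 6 h. The call held in 10 of 26 settings. It was lost without any 1 of CTL_0h_1, CTL_0h_3, CTL_0h_4, CTL_6h_2, CTL_6h_4, PPA_0h_4, PPA_0h_5, PPA_6h_1 or PPA_6h_2, with adjusted p up to 0.157.

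Rnaset2a, a copy of the lysosomal ribonuclease T2 gene at chr17:8115445-8148097, went from 36.2 ± 3.48 to 27.7 ± 1.60 FPKM at 0 h and from 44.9 ± 8.07 to 20.7 ± 1.45 FPKM at 6 h. The groups did not overlap at either time, and the mean log2 difference was −0.72 ± 0.09 (adjusted p = 0.00684, limma). The value is uncertain, because 81.6% of the 50-base words of its transcript also occur in other genes, 79.2% in Rnaset2b. The sum of both copies went from 82.8 ± 17.8 to 65.2 ± 6.70 FPKM at 0 h and from 82.6 ± 11.3 to 58.2 ± 5.70 FPKM at 6 h. The sum differed by −0.41 on the log2 scale (exact permutation within time, two-sided p = 0.01, where the smallest possible is 0.005), and in the limma fit with near-identical copies summed it was not called (adjusted p = 0.232). A fit of time and PPA without their interaction did not call Rnaset2a either (adjusted p = 0.0896, limma).

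A pair of neighbouring class Ib MHC genes, whose products present peptides outside the classical set, moved in opposite directions. H2-Q6 (chr17:35424850-35430055) was 5.75, 9.54 and 10.2 FPKM in CTL_0h and at most 0.00521 FPKM in PPA_0h. H2-Q8 was at most 0.0016 FPKM in CTL_0h and 9.81, 7.04 and 7.94 FPKM in PPA_0h. At 0 h the 2 genes were thus each at a few FPKM in 1 treatment and near 0 in the other. At 6 h H2-Q6 was 10.1, 3.73 and 5.93 FPKM in controls and 0.199, 1.59 and 5.38 FPKM with PPA, and H2-Q8 was 3.89, 9.31 and 4.72 FPKM in controls and 9.57, 6.99 and 4.22 FPKM with PPA, so the 6 h groups overlapped.

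The mean log2 difference was −2.30 ± 0.33 for H2-Q6 (adjusted p = 0.0178, limma) and 1.70 ± 0.19 for H2-Q8 (adjusted p = 0.00321, limma). For H2-Q8 the effects of 3.20 at 0 h and 0.20 at 6 h differed (adjusted p = 0.0386 for the difference, limma), so its mean over the times is not a shared effect. Without the interaction in the fit, neither H2-Q8 (adjusted p = 0.287, limma) nor H2-Q6 (adjusted p = 0.0804) was called. The sum of both genes did not show the shift: it was 8.48 ± 2.38 FPKM in CTL_0h and 8.27 ± 1.42 FPKM in PPA_0h. Over both times the sum differed by −0.20 on the log2 scale (exact permutation, two-sided p = 0.205). H2-Q6 shares 32% of its 50-base words with other genes among the transcripts searched. H2-Q8 was not among those transcripts, so its sharing with H2-Q6 was not measured. H2-Q6 was not called without CTL_0h_3, CTL_0h_4, CTL_6h_2, PPA_0h_2, PPA_0h_4, PPA_0h_5 or PPA_6h_2, with adjusted p up to 0.0768.

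Serpina9, a member of the serine protease inhibitor family at chr12:103994743-104013755, was listed at 0 in the 6 libraries of 0 h. In the 6 h libraries it was 1.58, 2.59 and 1.95 FPKM in controls and 5.93, 5.33 and 6.95 FPKM with PPA. Its mean effect of 0.61 ± 0.10 (adjusted p = 0.0483, limma) came wholly from 6 h, where the difference was 1.22. The exact permutation within time gave two-sided p = 0.1. The call held in 7 of 26 settings. It was lost without any 1 of the 10 libraries other than CTL_6h_3 and PPA_6h_5, with adjusted p up to 0.169.

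**Figure D3:**
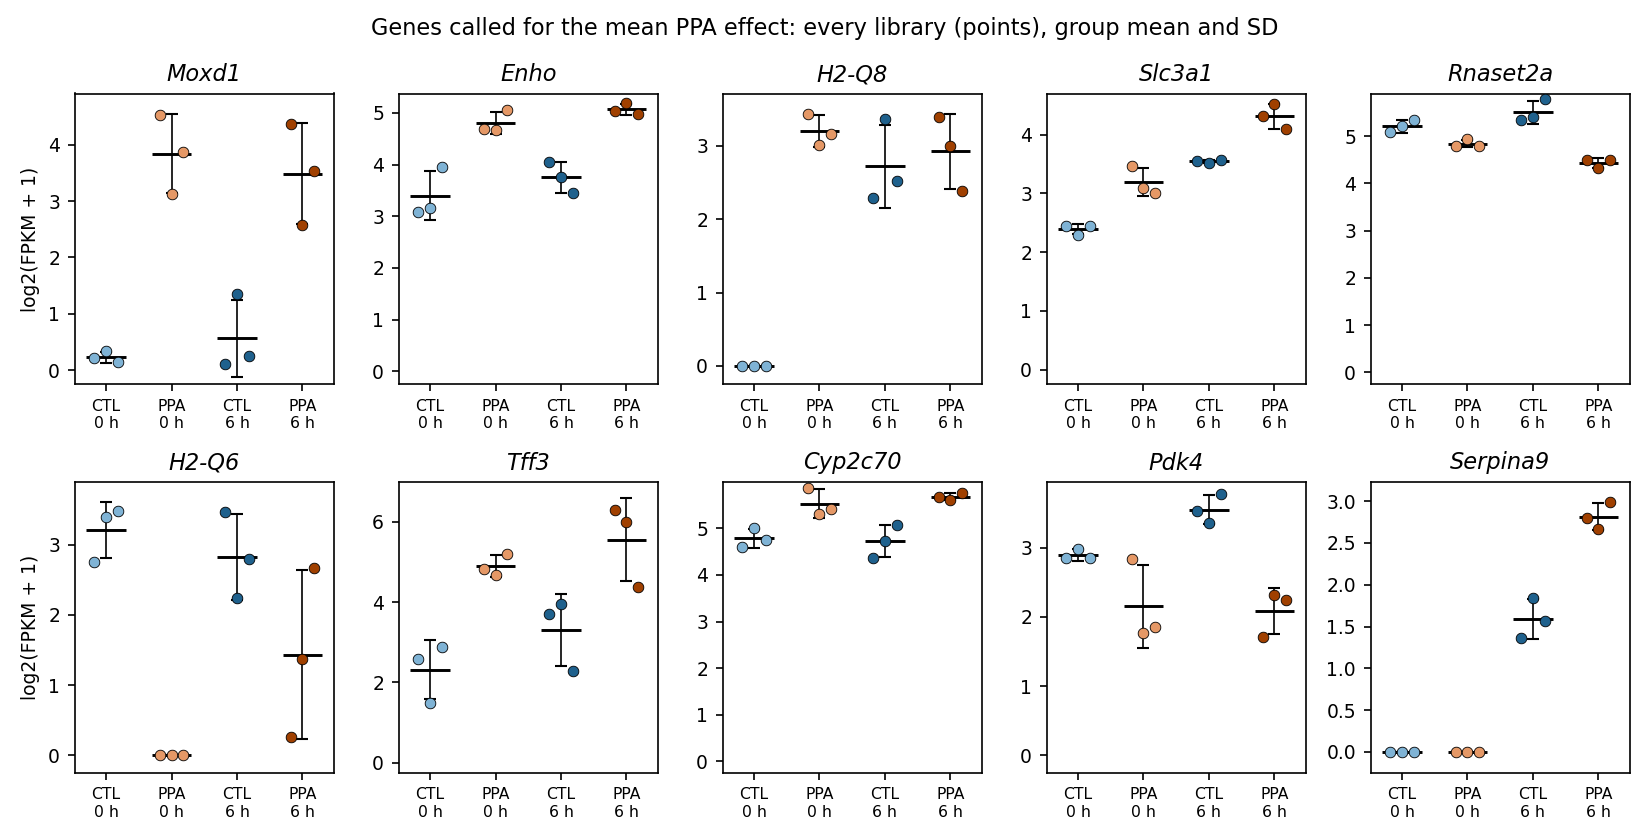
Level in log2(FPKM + 1) (y) of the 10 genes called for the mean PPA effect in each of the 12 libraries (points) by group (x), with bars for the group mean and its SD. Moxd1, Enho, Slc3a1, Tff3, Cyp2c70, Rnaset2a and Pdk4 have PPA and control libraries apart at both times, while H2-Q8, H2-Q6 and Serpina9 do not.

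Beyond the called genes, several others had PPA and control libraries apart at both times without passing the adjusted threshold in the fit of all 12 libraries. Of the genes named in this group, Gm2083, Ly96, Foxq1, Rnase4, Clstn3, Rdh16, Slc25a33 and Rab30 passed without CTL_6h_3 and also without PPA_6h_5. Of the fits with a single library left out, these had the most calls. Serpina1e, Hopx, Pltp, Cyp2c38 and Olig1 passed without CTL_6h_3, Srsf5, Acsl1 and Slc25a20 passed without PPA_6h_5, and Susd4 passed in neither. Gm2083, a row of the major urinary protein family, was 468 to 700 FPKM in CTL_0h, 1131 to 1346 FPKM in PPA_0h, 362 to 709 FPKM in CTL_6h and 776 to 1575 FPKM in PPA_6h. Its mean log2 difference was 1.09 ± 0.20 (adjusted p = 0.0826, limma). The near-identical copies of this family share reads, and the sum of its 21 rows differed by 0.10 (exact permutation, two-sided p = 0.465).

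Ly96 encodes MD-2, the partner of the lipopolysaccharide receptor TLR4. It went from 4.83 ± 1.36 to 6.55 ± 0.779 FPKM at 0 h and from 7.59 ± 2.11 to 14.9 ± 2.1 FPKM at 6 h (mean log2 difference 0.65 ± 0.14, adjusted p = 0.175, limma). Foxq1, a forkhead transcription factor, was 2.36 ± 0.407 and 3.13 ± 0.127 FPKM at 0 h without and with PPA, and 31.1 ± 9.14 and 54.1 ± 10.3 FPKM at 6 h. Serpina1e, an alpha-1-antitrypsin copy, was 4126 ± 770 and 6144 ± 784 FPKM at 0 h and 6609 ± 745 and 9225 ± 1529 FPKM at 6 h, and 35.6% of its 50-base words occur elsewhere. Rnase4, Hopx and Susd4, the last a complement regulator, had mean log2 differences of 0.56, 0.52 and 0.48. The adjusted p of these 5 genes lay between 0.206 and 0.291 (limma).

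Among the lower genes that were apart at both times at 5 FPKM or more, the largest mean difference was that of Pltp, the phospholipid transfer protein of plasma lipoproteins. It was 75.8, 128 and 34.7 FPKM in CTL_0h and 16.8, 34.5 and 26.3 FPKM in PPA_0h. At 6 h it was 65.1, 21.7 and 34.6 FPKM in controls and 10.7, 15.3 and 16.0 FPKM with PPA. The controls were scattered and the gap at 0 h was narrow, and the mean log2 difference of −1.40 ± 0.31 had an adjusted p of 0.199 (limma). Clstn3, which encodes calsyntenin 3, went from 17.2 ± 5.15 to 9.60 ± 1.37 FPKM at 0 h and from 7.12 ± 3.76 to 1.97 ± 1.34 FPKM at 6 h. Cyp2c38, a P450 of the Cyp2c family, went from 12.5 ± 1.86 to 7.35 ± 1.55 FPKM and from 3.76 ± 2.35 to 0.748 ± 0.341 FPKM.

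Rdh16, a retinol dehydrogenase of liver, was 37.0 ± 4.63 and 26.2 ± 4.34 FPKM at 0 h and 20.4 ± 6.58 and 9.62 ± 2.51 FPKM at 6 h. Slc25a33, a mitochondrial pyrimidine nucleotide carrier, differed by −0.40 at 0 h and −0.55 at 6 h, and Srsf5, a splicing factor, by −0.43 and −0.51, so both had similar differences at the 2 times. Rab30, Olig1, Acsl1 and Slc25a20 completed the lower set. With all 12 libraries none of these lower genes other than Rnaset2a and Pdk4 passed, with adjusted p of 0.175 to 0.258.

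Genes of fatty acid burning leaned lower with PPA. Of 55 tested PPAR-alpha targets and fatty acid oxidation genes, 1 fell at the adjusted threshold, Pdk4, and none rose. At unadjusted p under 0.05, 38 were lower and 0 higher, 69.1% against 7.42% lower among all genes. Lower at both times were 42, 76.4% against 30.4% of all genes. By time, 4 were lower at unadjusted p under 0.05 at 0 h and 44 at 6 h, where 3.54% and 8.83% of all genes were. In 4 members the groups were apart at both times. The median difference was −0.39, −0.19 at 0 h and −0.64 at 6 h, where all genes had −0.02, −0.01 and −0.02. The members were measured in the same 12 libraries, so their number is not a count of independent results.

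Slc25a20, Acsl1 and Pdk4 were among the members with the groups apart at both times. Slc25a20, the carnitine-acylcarnitine carrier of the inner mitochondrial membrane, was 150 to 165 FPKM in CTL_0h and 127 to 147 FPKM in PPA_0h, and 116 to 129 FPKM in CTL_6h and 61.6 to 109 FPKM in PPA_6h. Acsl1, which activates long-chain fatty acids, was 416 ± 5.54 and 364 ± 28.3 FPKM at 0 h and 213 ± 18.5 and 111 ± 63.4 FPKM at 6 h. Cd36, a fatty acid uptake receptor, was apart at 0 h, with 9.65 to 13.3 FPKM in controls and 5.15 to 5.86 FPKM with PPA. At 6 h it overlapped, since CTL_6h_3 had 1.56 FPKM. Acot3, a peroxisomal acyl-CoA thioesterase, had a mean log2 difference of −1.54 ± 0.37, and Aldh3a2, a fatty aldehyde dehydrogenase, of −0.96 ± 0.28 (adjusted p of 0.206 and 0.255, limma). Of the members above p of 0.05, Cpt1a, Ehhadh and Ppara itself are among 17.

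The list's mean level per library placed 1 PPA library beside the controls. On the log2(FPKM + 1) scale it was 6.55 to 6.65 in CTL_0h and 6.21 to 6.53 in PPA_0h. At 6 h it was 6.17 to 6.33 in controls and 5.08, 5.10 and 6.14 with PPA, the last in PPA_6h_5. Without PPA_6h_5, 34 of the 55 genes fell at the adjusted threshold, where 1.26% of all genes fell, and 51 were lower at unadjusted p under 0.05. Without CTL_6h_3, 5 of 54 fell. The unadjusted count dropped to 23 to 25 when PPA_6h_1, PPA_6h_2, CTL_6h_4 or PPA_0h_2 was left out, and to 23 after quantile normalization, with 0 higher in each.

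**Figure D4:**
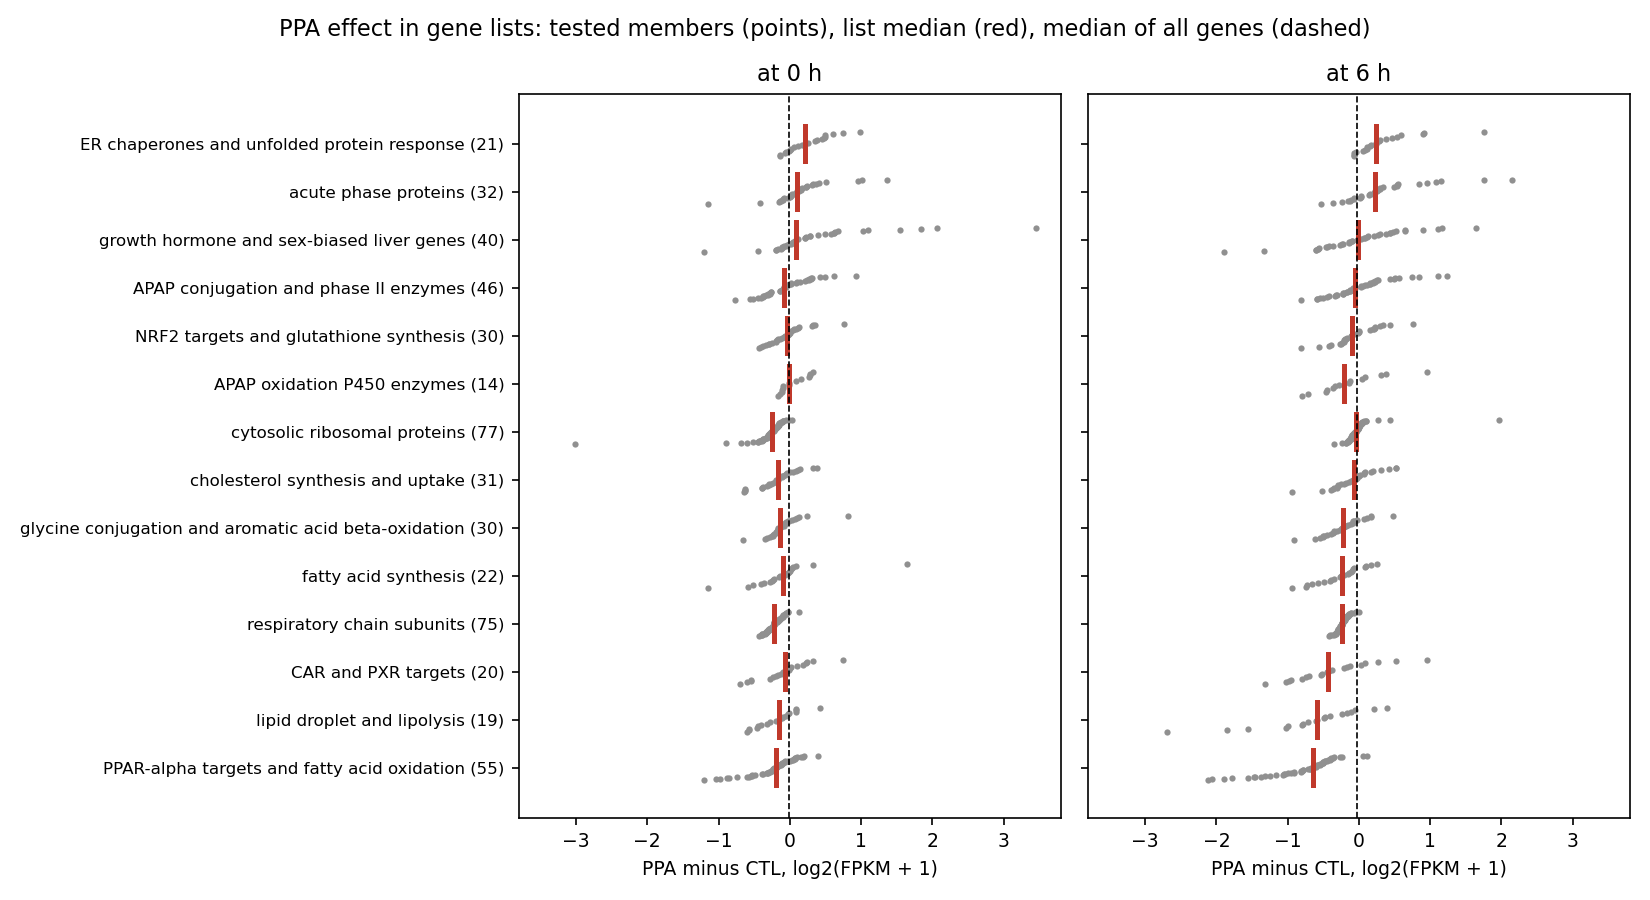
PPA minus control difference in log2(FPKM + 1) (x) at 0 h (left) and 6 h (right) for the tested members of 14 gene lists (grey points, number of genes in brackets), with the list median in red and the median of all genes dashed. The PPAR-alpha median is −0.19 at 0 h and −0.64 at 6 h, and the ER chaperone median is 0.21 and 0.24.

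No lipid storage gene passed the test of the mean effect with all 12 libraries. Of 19 lipid droplet and lipolysis genes, 11 were lower and 1 higher at unadjusted p under 0.05, where all genes had 7.42% and 5.55%, with a median of −0.33. By time, 2 were lower at 0 h and 11 at 6 h, where 3.54% and 8.83% of all genes were. The list median was −0.15 at 0 h and −0.58 at 6 h, and 1 gene was higher at each time. Without CTL_6h_3, 4 of the 19 fell at the adjusted threshold, and without PPA_6h_5, 5 did, with G0s2 among them both times. These were the fits with the most calls. G0s2, the inhibitor of the lipase ATGL, was 897 to 1183 FPKM in CTL_0h and 645 to 997 FPKM in PPA_0h. Its 6 h levels were 353, 144 and 351 FPKM in controls and 58.0, 64.3 and 98.3 FPKM with PPA, apart, with CTL_6h_3 lowest of the controls. Its mean log2 difference was −1.15 ± 0.22 (adjusted p = 0.122, limma). The difference was −0.45 at 0 h (adjusted p = 0.78, limma) and −1.86 at 6 h, where it passed (adjusted p = 0.043, limma). Of 20 targets of the xenobiotic receptors CAR and PXR, 1 rose, Cyp2c70, and none fell, while 9 were lower at unadjusted p under 0.05 (45% against 7.42% of all genes), among them Cyp2c29, Cyp2c37 and Cyp2c38. Without CTL_6h_3, 5 of the 20 fell, these 3 included, and without PPA_6h_5 none did. With all 12 libraries, 1 of the 20 was lower at unadjusted p under 0.05 at 0 h and 7 at 6 h. Of all genes 3.54% and 8.83% were lower at these times. In this list 1 gene was higher at each time, and the median was −0.07 at 0 h and −0.44 at 6 h. After quantile normalization 6 of the 20 were lower and 1 higher over both times. Cyp2c37 was 98.6 ± 14.9 and 98.1 ± 9.998 FPKM at 0 h and 33.3 ± 1.51 and 16.2 ± 3.78 FPKM at 6 h, with the groups overlapping at 0 h and apart at 6 h.

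No gene that handles PPA itself passed the test of the mean effect with all 12 libraries. Of 30 tested genes of glycine conjugation and aromatic acid beta-oxidation, 10 were lower at unadjusted p under 0.05 (33.3% against 7.42% of all genes), with 0 higher and a median of −0.20. By time, 2 were lower and 1 higher at 0 h, and 9 lower and 0 higher at 6 h. Of all genes 3.54% were lower at 0 h and 8.83% at 6 h. After quantile normalization 4 of the 30 were lower and 1 higher over both times, with a median of −0.10. Without CTL_6h_3, 3 of the 30 fell at the adjusted threshold, and without PPA_6h_5, 6 did. Glyat, the glycine N-acyltransferase that forms hippurate, was 160 ± 34.9 and 141 ± 17.0 FPKM at 0 h and 85.1 ± 18.6 and 91.8 ± 17.7 FPKM at 6 h. Its mean log2 difference was −0.03, with a 95% interval of −0.32 to 0.27, and its sign turned under several settings. Acsm1, a medium-chain acyl-CoA synthetase, differed by −0.08 (95% interval −0.28 to 0.12). Acadm, the medium-chain acyl-CoA dehydrogenase, was 284 ± 25.6 and 227 ± 23.7 FPKM at 0 h and 222 ± 18.9 and 162 ± 58.4 FPKM at 6 h, a mean log2 difference of −0.41 ± 0.14 (adjusted p = 0.291, limma), and it fell without PPA_6h_5 (adjusted p = 0.0137). Echs1 and Etfa, of the same oxidation, had the groups apart at both times with mean log2 differences of −0.23 and −0.21.

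No gene that handles APAP passed the test of the mean effect with all 12 libraries either. Of 14 P450 genes of APAP oxidation and their relatives, 1 was higher (7.14%) and 2 were lower (14.3%) at unadjusted p under 0.05. All genes had 5.55% and 7.42%. By time, 0 of the 14 were lower at 0 h and 5 at 6 h, where 3.54% and 8.83% of all genes were. None was higher at either time, and the list median was −0.01 at 0 h and −0.21 at 6 h. Without PPA_6h_5, 1 of the 14 rose at the adjusted threshold, where 0.52% of all genes rose. Cyp2e1, the main enzyme that makes the reactive metabolite, was 5425 ± 449 and 5073 ± 276 FPKM at 0 h and 2603 ± 716 and 1856 ± 221 FPKM at 6 h. Its mean log2 difference was −0.27 (95% interval −0.57 to 0.02), and CTL_6h_3 at 1840 FPKM was among the PPA values. Cyp1a2 differed by 0.32 ± 0.15 and Cyp3a11 by −0.48 ± 0.21 (adjusted p of 0.384 and 0.369, limma). Of 46 conjugation and phase II genes 6 were higher (13%) and 8 lower (17.4%) at unadjusted p under 0.05, where all genes had 5.55% and 7.42%. Among them Gstp1, a glutathione transferase, differed by 0.45 ± 0.11 and Gstk1 by −0.42 ± 0.12. Without CTL_6h_3, 2 of the 46 rose and 4 fell at the adjusted threshold, Gstp1 and Gstk1 among them, and without PPA_6h_5, 2 rose, Gstp1 included, and none fell. Gstp1 was apart at 0 h, with 1568 to 1825 FPKM in controls and 2528 to 2927 FPKM with PPA, and overlapped at 6 h.

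Of 30 NRF2 targets and glutathione synthesis genes, which answer oxidative and electrophile stress, 1 was higher (3.33%) and 3 lower (10%) at unadjusted p under 0.05. All genes had 5.55% and 7.42%. Without CTL_6h_3 the lower count was 9. In that fit 1 of the 30 fell at the adjusted threshold, where 1.88% of all genes fell. Gclc, of the rate-limiting glutathione synthesis enzyme, differed by 0.07 ± 0.17, and Nqo1 by 0.10 ± 0.15. Hmox1, haem oxygenase 1, had opposite differences at the 2 times, 0.75 at 0 h and −0.81 at 6 h. It was 3.50 to 6.11 FPKM in CTL_0h and 7.13 to 9.60 FPKM in PPA_0h, and 531 to 863 FPKM in CTL_6h and 277 to 610 FPKM in PPA_6h, where the groups overlapped. Ugt1a6a and Sult1a1, of glucuronidation and sulfation, differed by 0.14 ± 0.18 and −0.20 ± 0.11. None of these 5 genes had an adjusted p under 0.436 (limma).

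Genes of protein folding and of the acute phase leaned higher. Of 21 ER chaperone and unfolded protein response genes none passed the adjusted threshold, and 7 were higher and 0 lower at unadjusted p under 0.05 (33.3% against 5.55% higher among all genes), with a median of 0.25. By time, 3 were higher at 0 h and 7 at 6 h, where 3.26% and 6.04% of all genes were. None had the groups apart in the same direction at both times. The list's mean level at 6 h was 6.28 in CTL_6h_3 and 6.14 in PPA_6h_5, so the groups overlapped. Sdf2l1, an ER folding cofactor, was 21.9 to 27.4 FPKM in CTL_0h and 32.8 to 63.3 FPKM in PPA_0h. Its 6 h levels were 13.7, 38.3 and 14.4 FPKM in controls and 79.4, 144 and 28.7 FPKM with PPA, so CTL_6h_3 was above PPA_6h_5. Its mean log2 difference was 1.38 ± 0.35 (adjusted p = 0.22, limma), and Manf, a secreted ER stress factor, and Syvn1, an ER ubiquitin ligase, differed by 0.70 ± 0.18 and 0.52 ± 0.15. Without CTL_6h_3 the unadjusted count was 12, and 4 rose at the adjusted threshold, where 1.47% of all genes rose. Without PPA_6h_5, 3 rose, where 0.52% of all genes did.

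Of 32 acute phase genes 10 were higher and 0 lower at unadjusted p under 0.05 (31.2% higher against 5.55% of all genes), with a median of 0.18, and none passed the adjusted threshold. By time, 4 were higher and 1 lower at 0 h, and 7 higher and 1 lower at 6 h. None had the groups apart in the same direction at both times. Without CTL_6h_3, 13 were higher and 2 lower at unadjusted p under 0.05. In that fit 4 rose at the adjusted threshold, Il1r1 and Serpina3n among them, where 1.47% of all genes rose. Il1r1, the interleukin 1 receptor, was 2.33 to 3.04 FPKM in CTL_0h and 5.36 to 8.06 FPKM in PPA_0h, and overlapped at 6 h. Serpina3n was 187 and 262 FPKM on average at 0 h and 378 and 531 FPKM at 6 h, with CTL_6h_3 at 547 FPKM. The count was 6 without PPA_0h_5 or PPA_6h_1. Of 15 Kupffer cell and macrophage markers, 3 were higher at unadjusted p under 0.05 (Folr2, Cd163 and Marco) and 0 lower, 20% higher against 5.55% of all genes. The 15 markers had a median of 0.25, with none at 0. Their summed level was 128 to 247 FPKM in CTL_0h and 197 to 299 FPKM in PPA_0h, and 197 to 298 FPKM in CTL_6h and 194 to 268 FPKM in PPA_6h, so it overlapped at both times. Their part in these results was not tested, and in bulk liver more cells of a type and more RNA per cell cannot be told apart.

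**Figure D5:**
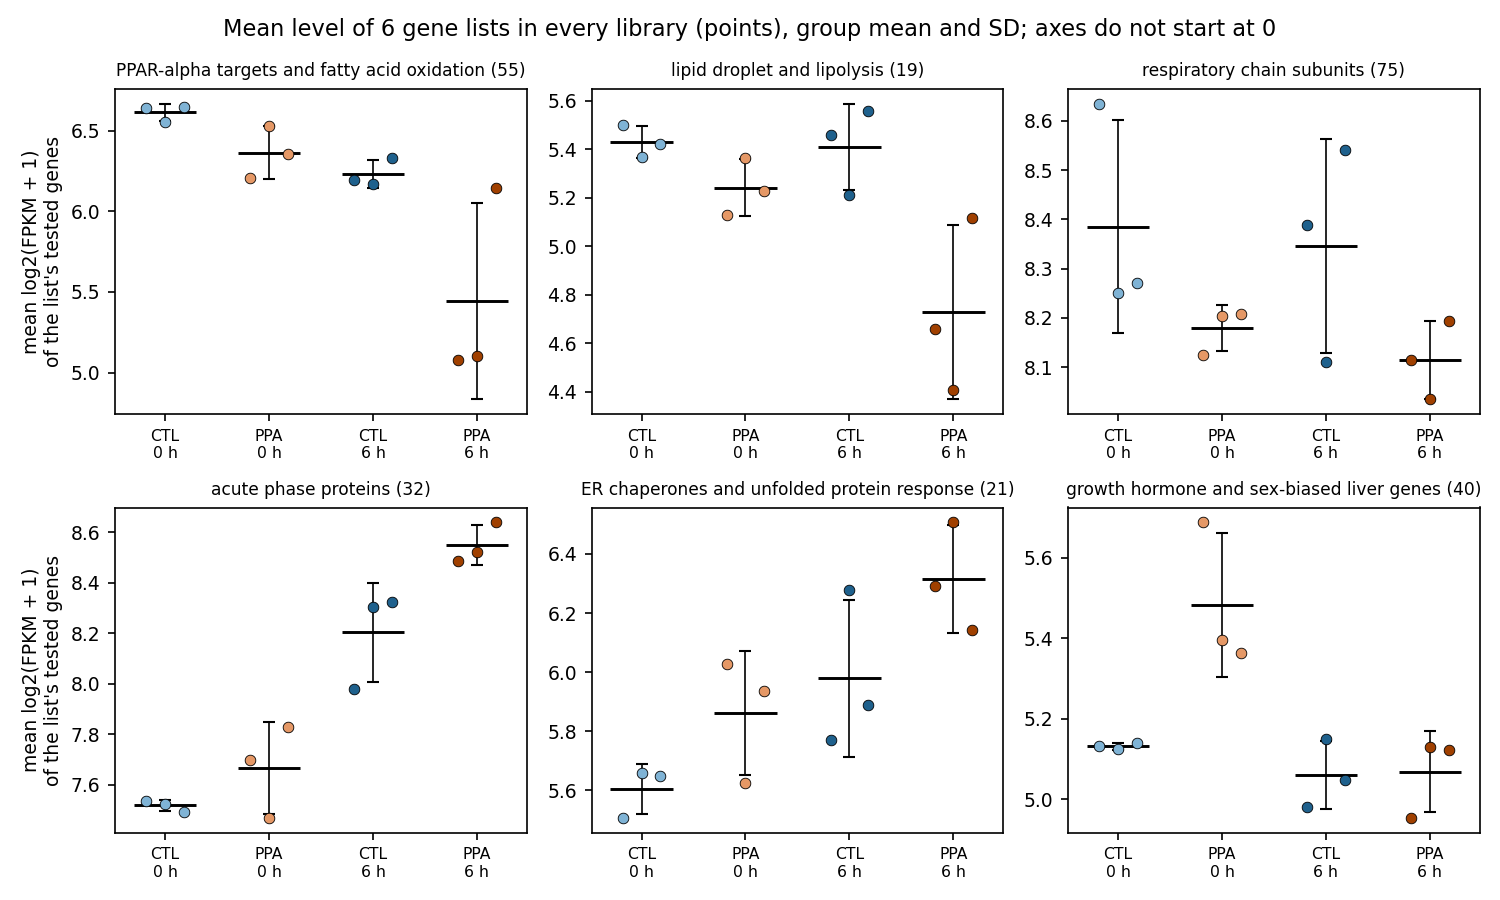
Mean log2(FPKM + 1) over the tested genes of 6 lists (y, axes not starting at 0, number of genes in brackets) in each library (points) by group (x), with bars for the group mean and its SD. The PPAR-alpha mean is 6.14 in PPA_6h_5 against 5.08 and 5.10 in the other PPA libraries of 6 h, and CTL_6h_3 is nearest to PPA in the respiratory chain and ER chaperone lists.

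Among genes set by growth hormone and sex, 11 of 40 were higher and 3 lower at unadjusted p under 0.05 (27.5% against 5.55% higher among all genes), and none passed the adjusted threshold. The list median was 0.04, 0.09 at 0 h and −0.01 at 6 h. At unadjusted p under 0.05, 12 were higher and 2 lower at 0 h, and 7 were higher and 6 lower at 6 h. Of all genes 3.26% were higher at 0 h and 6.04% at 6 h. Without CTL_6h_3, 6 members rose, Cyp7b1 included, and 1 fell at the adjusted threshold, and without PPA_6h_5, 3 rose and 1 fell. Cyp7b1, an oxysterol hydroxylase that is higher in male mice, was 39.7 to 48.3 FPKM in CTL_0h and 90.1 to 109 FPKM in PPA_0h. Its 6 h levels were 37.6, 94.2 and 64.6 FPKM in controls and 103, 74.7 and 116 FPKM with PPA, overlapping through CTL_6h_3. Its mean log2 difference was 0.87 ± 0.18 (adjusted p = 0.167, limma). C8b, a complement component, was apart at both times, with 86.3 ± 3.69 and 134 ± 11.8 FPKM at 0 h and 123 ± 13.0 and 152 ± 21.3 FPKM at 6 h (mean log2 difference 0.46 ± 0.09, adjusted p = 0.134, limma). Mup14, a major urinary protein, differed by 1.33 ± 0.25, and 97.6% of its 50-base words occur in other genes. The list's mean level was 5.12 to 5.14 in CTL_0h and 5.36 to 5.69 in PPA_0h, and overlapped at 6 h.

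Genes of the respiratory chain leaned lower by a small amount. Of 75 respiratory chain subunit genes, 73 were lower at both times (97.3% against 30.4% of all genes), 25 were lower at unadjusted p under 0.05 (33.3% against 7.42%) and 0 higher, and none passed the adjusted threshold. Without CTL_6h_3, 3 fell, where 1.88% of all genes fell. The list median was −0.22 at 0 h and −0.23 at 6 h. The list's mean level was 8.63, 8.25 and 8.27 in CTL_0h and 8.13 to 8.21 in PPA_0h, and 8.39, 8.11 and 8.54 in CTL_6h and 8.03 to 8.19 in PPA_6h, so CTL_0h_1 and CTL_6h_4 were highest. These 2 libraries also had the highest summed FPKM, 766091 and 769104. The unadjusted count was 5 without CTL_6h_4, PPA_0h_2 or PPA_6h_2, 6 without CTL_0h_1, 8 without CTL_6h_2, 59 without CTL_6h_3 and 6 after quantile normalization. For the 77 cytosolic ribosomal protein genes the median was −0.16. Of them 6 were lower at unadjusted p under 0.05, 7.79% against 7.42% of all genes. After quantile normalization the median was −0.01, with 0 lower and 2 higher.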

How the data were processed

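Poly(A) RNA of mouse liver was sequenced in 12 libraries, 3 per group; libraries were made with a ThruPLEX kit, per the labels' protocols. The deposited values are FPKM per gene row, computed by the authors; HISAT2 2.1.0, Cufflinks, SAMtools 0.1.18-r580, Cuffdiff 2.1.1 and the mm10 build are named in the submitters' processing notes, with no roles, settings or annotation. No read counts were used, so depth was estimated and no counting interval is given.

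Rows at 1 FPKM or more in at least 3 libraries were tested on log2(FPKM + 1), which understates changes of low genes. Left out were Alb and Apoe, 1314 rows of short RNA genes, which poly(A) selection captures poorly, and, from naming only, 27 rows whose symbols had become date serials. limma 3.58.1 in R 4.3.3 was fitted over all 12 libraries with 1 mean per group and a mean-variance trend. Contrasts were PPA minus control averaged over the times, at each time, and their difference, two-sided, with Benjamini-Hochberg adjustment over all tested genes. "Rose" and "fell" mean an adjusted p under 0.05. Single genes were also tested by exact permutation within time (400 arrangements). The scripts were tested on simulated data.

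The genes named were those called, up to 12 apart at both times in each direction at 5 FPKM or more, up to 3 of each list with unadjusted p under 0.01, 12 genes of PPA and APAP handling, and further list members as examples, the last chosen after their values were seen; some genes under this rule are not reported here. Members, the 34 function and 17 marker lists and this rule were chosen with earlier results of these data known. Positions are from GENCODE vM21 (GRCm38). Alternatives covered the pseudocount, filter, scaling, weights, model and each library left out. Python 3.11.15, pandas 2.3.3 and matplotlib 3.10.9 were used.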

Additional observations from a re-analysis of the deposited data

Results flagged for a closer look

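The PPA effect on H2-Q8 differed between the times: 6 h minus 0 h was −2.99 on the log2(FPKM + 1) scale (adjusted p = 0.0386 for the difference, limma). The gene was near 0 in the 3 CTL_0h libraries and at 3.89 FPKM or more in the other 9, while its neighbour H2-Q6 was near 0 in the 3 PPA_0h libraries. The Apoe row, left out of the tests, was listed at 0 in the 3 CTL_6h libraries and at 29427 FPKM or more in PPA_6h. Alb was listed at 0 in the 6 libraries of 6 h.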

How the results depend on the processing

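With each library left out in turn, the mean PPA effect called 4 to 147 higher and 1 to 188 lower genes, PPA called 1 to 5 genes at 0 h and 3 to 821 at 6 h, and 0 to 48 effects differed between the times. The highest counts at 6 h and for the mean came without CTL_6h_3, and the next highest without PPA_6h_5 (52 higher, 126 lower, 383 at 6 h, 16 that differed). Groups were apart at both times in 63 to 173 genes upward and 75 to 276 downward, where fewer libraries make this easier.

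Sample quality weights, whose estimation stopped before it converged, called 598 higher and 825 lower, 10 at 0 h, 3638 at 6 h and 523 differing. The other settings below gave these counts of calls, and the cause was not tested. A pseudocount of 0.1 gave 6 at 0 h and 2 at 6 h, and a pseudocount of 5 gave 1, 22 and 0 differing. No filter gave 4 higher, 1 at 0 h and 5 at 6 h. Quantile normalization gave 0 differing. Keeping short RNA genes gave 4 at 6 h and 0 differing. Robust moderation gave 9 at 6 h. Fitting time and PPA without their interaction gave 0 lower. Fitting each time alone gave 9 at 0 h and 0 at 6 h. Summing near-identical copies gave 0 lower, 1 at 0 h and 0 differing, and leaving out CTL_6h_4 with the muscle markers gave 3 at 6 h and 0 differing; both were chosen after seeing the data. Of 2180 values of named genes under the alternatives, 1946 kept direction and side of the threshold, 141 passed it newly and 72 no longer passed. The other 21, from 6 genes, changed sign, all with adjusted p of 0.771 or more (limma). With a library left out, the log2 difference spanned −0.1016 to 0.0591 for Glyat, −0.1785 to 0.1059 for Hmox1, −0.0594 to 0.2366 for Gclc, −0.0174 to 0.2346 for Ugt1a6a and −0.0125 to 0.2181 for Nqo1. Without CTL_6h_4 and the muscle markers it was 0.0591 for Glyat, 0.0506 for Hmox1, −0.0594 for Gclc and −0.0174 for Ugt1a6a. After quantile normalization it was 0.1002 for Glyat, 0.0817 for Hmox1 and 0.0394 for Acsm1. Quality weights gave 0.0123 for Glyat and −0.0712 for Ugt1a6a, and a pseudocount of 0.1 gave 0.0304 for Hmox1.

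The replicate numbers of the titles did not pair the libraries: the 9 pairs with the same number had correlations of their deviations of −0.28 to 0.09. With the replicate block the mean effect called 2 higher, and the fit called 1 gene at 6 h and 0 differing; of the 10 genes called without it, Moxd1, H2-Q8 and H2-Q6 were called and the other 7 were not. Low FPKM values at 0 h rest on fewer fragments than at 6 h.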
